A study of Homo sapiens with 18 samples.

Results

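The 40 genes described here encode splicing regulators: 11 SR proteins (SRSF1 to SRSF11), the SR-like factors TRA2A and TRA2B, the kinases CLK1 to CLK4, 17 hnRNP proteins, PTBP1 and PTBP2, U2AF1 and U2AF2, and TIA1 and TIAL1. They were taken from a list of gene names, out of 35579 genes in the transcript tables. No measured value served as a filter, but the list was chosen with earlier results of these data known. Each of their transcripts was placed in a class by its Ensembl identifier in GENCODE 29 (GRCh38): protein coding, nonsense-mediated decay or retained intron. The last 2 classes are called unproductive below, and the unproductive share is their part of the gene's summed abundance in TPM, a measure scaled for transcript length and library size. Shares are over all transcripts of the gene, those of other classes included. All 40 genes passed the filter on counts, and 33 had enough coding and unproductive signal for a test of the balance between them. CLK2, HNRNPA0, HNRNPA3, HNRNPF, HNRNPH3, HNRNPR and PTBP2 did not, and of these only HNRNPA3 and HNRNPR have a transcript of an unproductive class.

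PolyA RNA came from U2OS cells, an osteosarcoma line, carrying an integrated construct tagged with mCherry, with 3 libraries in each of 6 groups and 18 in all. The untreated groups carried mCherry alone, EWS-FLI1 (the fusion transcription factor of Ewing sarcoma), EWS-FLI1mut or EWS(YS37)-FLI1. In 2 further groups, EWS-FLI1 cells received LY2835219, also known as abemaciclib, which inhibits CDK4 and CDK6, at 7.5 µM, and were collected after 6 h or 24 h, as sample titles and characteristics give it; the treatment protocol names other hours. The labels say neither what distinguishes the mut and YS37 forms, nor whether each line is a clone or a pool, nor whether untreated cells received vehicle. They call the libraries biological replicates but name no separately made lines, so p-values measure the spread between these samples, which may be technical. The growth protocol also names other cells, and 2 library kits are listed without saying which library used which.

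SR proteins bind exonic enhancers and mostly promote exon inclusion, hnRNP proteins often oppose it, and CLK kinases phosphorylate SR proteins and so control their activity and place in the nucleus. Many of these genes contain a poison exon, a conserved cassette whose inclusion brings in an early stop codon, so that the RNA is degraded by nonsense-mediated decay. The splicing factor itself often promotes inclusion of its own poison exon, which holds its level in a range. CLK1 and CLK4 use other means: they keep introns in polyadenylated nuclear RNA, and they can skip an exon upstream of the kinase domain. Polyadenylated RNA with a retained intron can be spliced later or remain in the nucleus, so an unproductive annotation describes the transcript model and not its fate in these cells.

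Exons that set an annotated decay transcript apart from the main coding one are shown first for 5 genes with a called ratio at 6 h, as read from the GENCODE 29 transcripts, 5′ to 3′. The transcripts were chosen after their values were seen, except HNRNPLL-201. Decay transcripts SRSF7-205 and SRSF6-202 also hold an exon of this kind with a stop codon, which is not printed, and their values are given below. The first 3 lines give the start of an exon present in an annotated decay transcript and absent from the main coding one, up to the stop codon in capitals. They lie at chr6:36599821-36599854 on the plus strand (34 of the 456 bases of the exon), chr19:38841624-38841682 on the minus strand (59 of 70 bases) and chr2:38577956-38578002 on the minus strand (47 of 83 bases).
SRSF3-203: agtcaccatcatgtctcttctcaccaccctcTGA
HNRNPL-202: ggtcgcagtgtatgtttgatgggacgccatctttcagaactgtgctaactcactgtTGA
HNRNPLL-201: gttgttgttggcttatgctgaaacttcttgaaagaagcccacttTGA
The next 2 lines give exon 4 of CLK1-201 (chr2:200860125-200860215, minus strand), which the decay transcript CLK1-204 skips, and exon 4 of CLK4-201 (chr5:178617344-178617434, minus strand), which CLK4-210 skips.
CLK1: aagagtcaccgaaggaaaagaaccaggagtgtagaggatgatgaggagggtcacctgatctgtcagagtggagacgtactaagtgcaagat
CLK4: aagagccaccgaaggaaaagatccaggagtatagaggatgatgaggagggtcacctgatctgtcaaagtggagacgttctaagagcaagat
Both exons are 91 bases long, a length that shifts the reading frame when skipped, and they match at 85 of 91 positions (93.4%). HNRNPDL-202 and HNRNPD-211 are of another kind: each holds an exon after its stop codon that the main coding transcript lacks, of 105 bases on chromosome 4 (82425563 to 82425667) and of 107 bases (82354895 to 82355001).

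The libraries held 16261034 to 20270637 estimated counts, of which 2.59% to 2.74% fell on transcripts without a GENCODE 29 match. Retained introns took 5.83% to 6.75% and decay transcripts 2.58% to 2.80% of the matched TPM. The retained-intron share averaged 6.09% ± 0.231 (SD, n = 3) in untreated EWS-FLI1 libraries, 6.66% ± 0.0788 at 6 h and 6.44% ± 0.329 at 24 h. Mitochondrial transcripts took 4.67% ± 0.270 of the counts untreated, 5.98% ± 0.142 at 6 h and 5.99% ± 0.371 at 24 h; their part in the results below was not tested. FLI1, counted with no split between fusion and normal gene, averaged 0.547 ± 0.563 CPM (counts scaled to library size) in mCherry cells, 247 ± 16.3 in EWS-FLI1 cells, 642 ± 19.9 in EWS-FLI1mut cells and 1019 ± 44.0 in EWS(YS37)-FLI1 cells. With the drug it was at 406 ± 21.8 at 6 h and 236 ± 10.4 at 24 h. Of 7 mesenchymal and bone markers, 6 were abundant (RUNX2, the lowest, at 42.4 to 90.7 CPM), and COL1A2 reached at most 1.68 CPM. Epithelial, blood and endothelial markers reached at most 12.0 CPM (CDH5), and CD3E was at 0 in every library.

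In mCherry cells the members ranged from 12.6 TPM for CLK4 to 2101 TPM for HNRNPA1, a major nuclear RNA-binding protein, with a median of 224 TPM. Unproductive transcripts were a large part of several of them. Over the 33 genes tested, the mean share ran from 1.29% in HNRNPM to 77.4% in SRSF6, with a median of 19.3%, and 8 genes were above 50%. In EWS-FLI1 cells the median share was 17.1%, with 8 genes above 50%. At 6 h of LY2835219 the median was 23.6% and 10 genes were above 50%, with SRSF3 the highest at 79.2%. At 24 h it was 20.7%, with 9 genes above 50%. The median level of the 40 members was 235 TPM in untreated EWS-FLI1 cells, 155 TPM at 6 h and 178 TPM at 24 h. TPM and the scaled counts tested below are on different scales. By scaled counts the members' median log2 change at 6 h was 0.23, with 20 genes called higher and 13 lower.

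**Figure D1:**
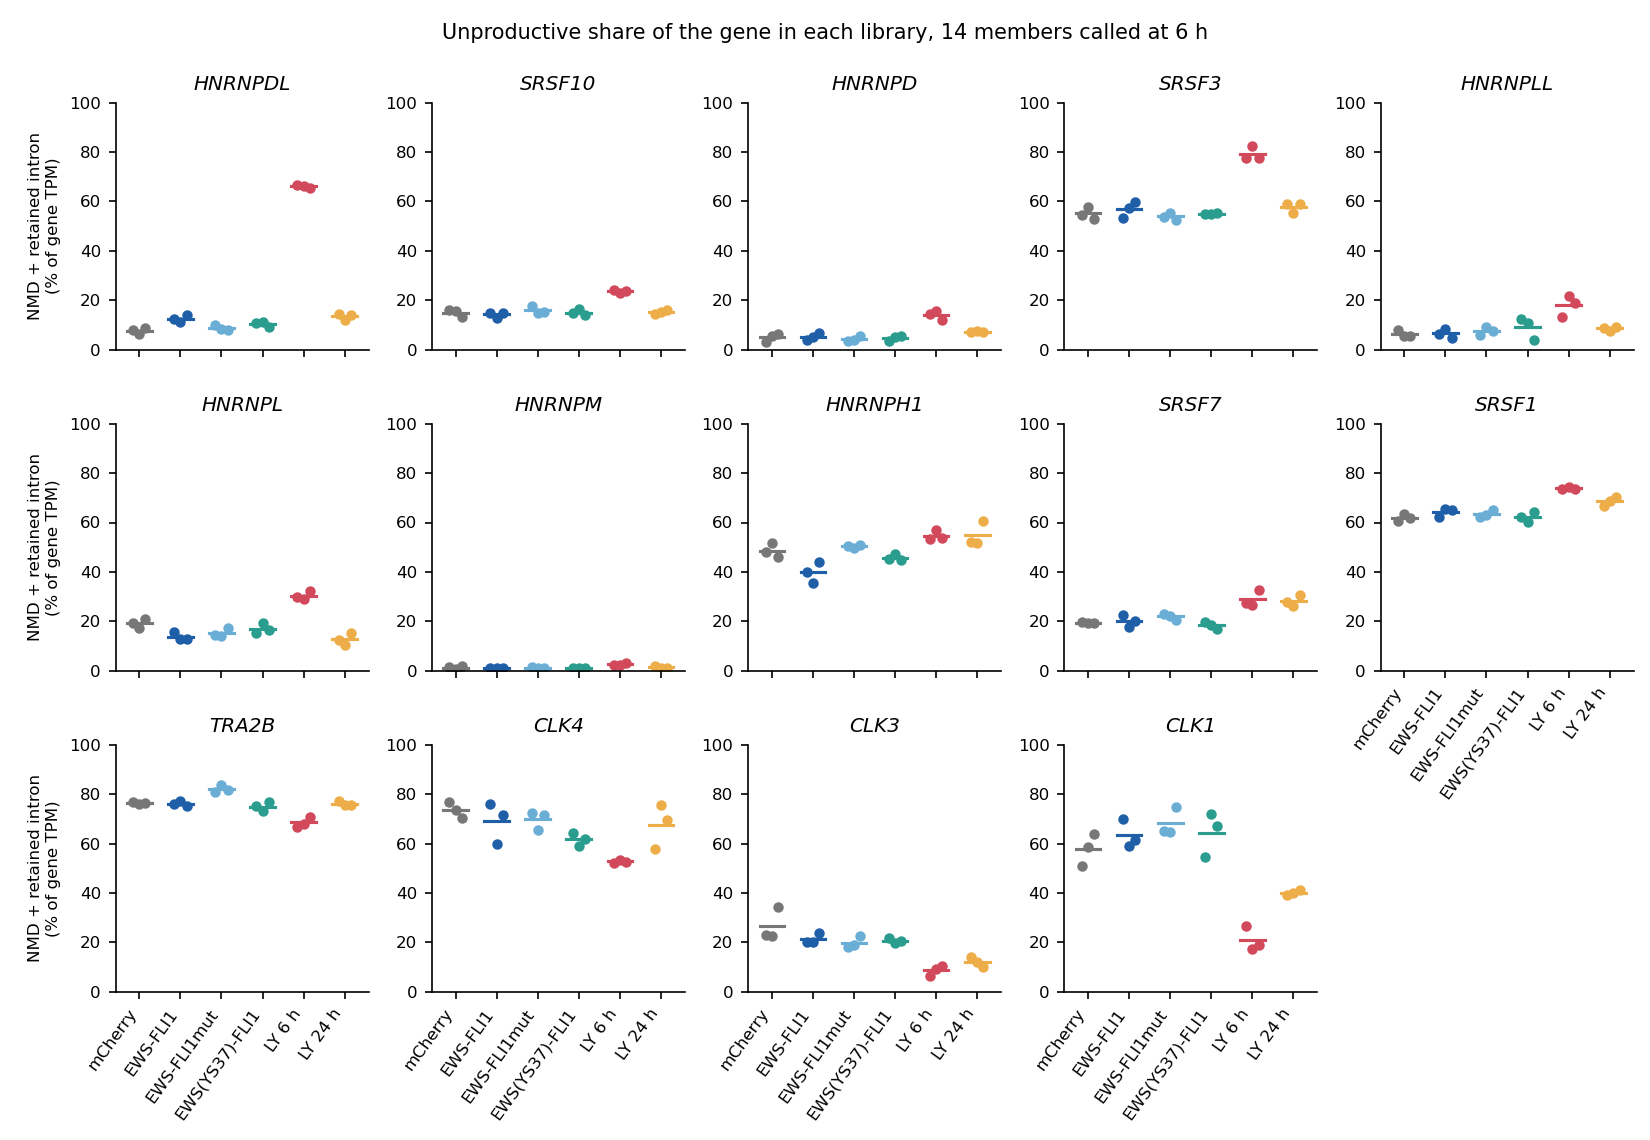
Unproductive share (vertical, percent of the gene's TPM) in each of the 18 libraries, by group (horizontal), for the 14 genes whose ratio was called at 6 h; points are libraries and lines are group means. HNRNPDL stands at 65.6% to 66.6% in the 6 h libraries against 11.1% to 13.8% in untreated EWS-FLI1 libraries, and CLK1 goes the other way, from 59.1% to 69.9% down to 17.5% to 26.7%.

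The first question was whether the constructs changed these genes without drug. EWS-FLI1 changed few of them against mCherry: by edgeR's quasi-likelihood test on gene sums of estimated counts, CLK1 and CLK4 were higher and 7 genes were lower, HNRNPC most clearly. That made 9 of 40 genes called at an adjusted p under 0.05, or 22.5%, beside 21.1% of all 16786 genes tested. The median log2 change was -0.05 over the members and -0.02 over all genes. With upper-quartile scaling the split of 2 higher and 7 lower became 1 and 7, and with no scaling factors 1 and 8.

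CLK1, a kinase of SR proteins, stood at 46.8, 51.2 and 50.8 CPM in mCherry libraries and 62.3, 65.0 and 65.2 CPM in EWS-FLI1 libraries, which did not overlap. Its log2 change was 0.37 ± 0.08 (SE; edgeR adjusted p = 0.00100). The retained-intron sum of CLK1 rose by 0.49 (edgeR adjusted p = 0.0282), and its main such transcript, CLK1-210, read 7.75, 10.2 and 12.3 TPM against 17.1, 13.2 and 15.8 TPM. CLK4, a close relative, read 14.7, 17.0 and 17.0 CPM against 20.7, 18.7 and 19.3 CPM, higher by 0.27 ± 0.09 (edgeR adjusted p = 0.0432). The CLK4 call was lost without EWS-FLI1 replicate 1 (0.23), EWS-FLI1 replicate 3 (0.30) or mCherry replicate 1 (0.20), with upper-quartile or no scaling (0.25 in each), with no filter (0.27) and on the log2(TPM + 1) scale (0.23).

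Among the genes lower with EWS-FLI1, HNRNPC, which binds uridine-rich pre-mRNA and blocks cryptic exons, read 785, 825 and 789.6 CPM in mCherry libraries and 576, 619.8 and 590.0 CPM in EWS-FLI1 libraries. The change was -0.43 ± 0.05 (edgeR adjusted p = 5.58e-07). The groups did not overlap, which is no separate support, here or for other genes named for large called changes. SRSF5, an SR protein, read 329.5, 349 and 353 CPM against 279, 251 and 304 CPM, lower by 0.31 on the log2 scale (SE 0.07, edgeR adjusted p = 0.00168). HNRNPDL, a relative of HNRNPD, changed by -0.25 ± 0.06 (edgeR adjusted p = 0.00476), and HNRNPA2B1 by -0.30. U2AF1, which recognises the 3′ splice site, was called at -0.50 ± 0.15 (edgeR adjusted p = 0.0180), but its mCherry libraries read 41.1, 75.0 and 55.9 CPM and its EWS-FLI1 libraries 39.4, 40.3 and 41.5 CPM, so they overlapped. The U2AF1 call was lost without mCherry replicate 2 (-0.25, adjusted p = 0.24), EWS-FLI1 replicate 1 or EWS-FLI1 replicate 2 (-0.48 in each). HNRNPF and HNRNPR, the remaining calls, changed by -0.12 and -0.20; each was lost when single libraries were left out, HNRNPF for any of the 6 libraries and HNRNPR without EWS-FLI1 replicate 3 or mCherry replicate 2.

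EWS-FLI1mut lowered 4 of 40 genes and raised 0 (edgeR; 17 at an unadjusted p under 0.05, 12 called by DESeq2), beside 7.15% of all genes called (3.53% higher, 3.62% lower). HNRNPA0, an hnRNP of the A family, read 284, 329 and 284 CPM with mCherry and 253, 254 and 251 CPM with EWS-FLI1mut, a change of -0.24 ± 0.06 (edgeR adjusted p = 0.0120). The other 3 were SRSF7 (-0.20), SRSF2 (-0.17) and TRA2B (-0.16), with adjusted p from 0.0340 to 0.0359. SRSF7, SRSF2 and TRA2B lost the call whichever library was left out, and HNRNPA0 lost it without mCherry replicate 2 (-0.17) and on the log2(TPM + 1) scale (-0.16). On the log2(TPM + 1) scale, limma called 1 gene, which was higher.

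EWS(YS37)-FLI1 raised PTBP1 and U2AF2 and lowered 4 genes by edgeR, beside 21.7% of all genes called. HNRNPA0 read 259.5, 238.2 and 256 CPM, lower than with mCherry by 0.25 on the log2 scale (SE 0.06, edgeR adjusted p = 0.00278). It was the only one of the 6 genes to keep its call in every alternative tried. PTBP1, a repressor of exons, read 495, 469 and 453 CPM with mCherry and 563, 514 and 559 CPM with EWS(YS37)-FLI1 (0.21 ± 0.05, edgeR adjusted p = 0.00771), but only 0.06 on the log2(TPM + 1) scale. HNRNPLL and TIA1 changed by -0.26 and -0.25 and HNRNPA2B1 by -0.19, and all 3 lost the call without mCherry replicate 2, EWS(YS37)-FLI1 replicate 1 or EWS(YS37)-FLI1 replicate 3. The same was so for U2AF2 (0.16), also without mCherry replicate 3, which ended the TIA1 call too. The split of 2 higher and 4 lower became 1 and 6 with upper-quartile or no scaling, and 0 and 3 by limma on log2(TPM + 1).

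The balance of coding and unproductive transcripts was then tested by limma on log2 of unproductive over coding TPM, each with 0.5 TPM added. In each of the 3 construct comparisons it called 0 of the 33 genes, beside 0.0145% of the 6903 genes tested. At an unadjusted p under 0.05 there were 4 genes for EWS-FLI1, 1 for EWS-FLI1mut and 1 for EWS(YS37)-FLI1. The median change over the members was -0.03, 0.05 and 0.03, against -0.09, 0.00 and -0.03 over all genes. When estimated counts were summed by gene and class and tested by edgeR, 11 of 98 sums of the members were called for EWS-FLI1 (10.3% of all sums), 3 for EWS-FLI1mut (2.48%) and 4 for EWS(YS37)-FLI1 (10.6%). With EWS-FLI1 these included lower coding sums of SRSF5 (-0.52), HNRNPC (-0.42) and HNRNPDL (-0.32).

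After 6 h of LY2835219 the members changed widely, and the 3 testable CLK kinases moved towards coding transcripts while 10 SR and hnRNP genes moved away from them. By gene sums, 20 of the 40 genes rose and 13 fell by edgeR, beside 64.9% of all genes called in either direction (31.6% higher, 33.3% lower). Called members were 82.5%, and the median log2 change was 0.23 over the members and -0.02 over all genes. By class of protein, 6 of 11 SR genes rose and 4 fell, both TRA2 genes rose, 3 of 4 CLK genes rose, 6 of 17 hnRNP genes rose and 8 fell, both U2AF genes rose, and neither PTB gene was called. The direction depended on scaling: with no scaling factors the split was 13 higher and 19 lower, and on the log2(TPM + 1) scale 11 and 16. Those choices moved the median of all genes by -0.24 and -0.23.

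**Figure D2:**
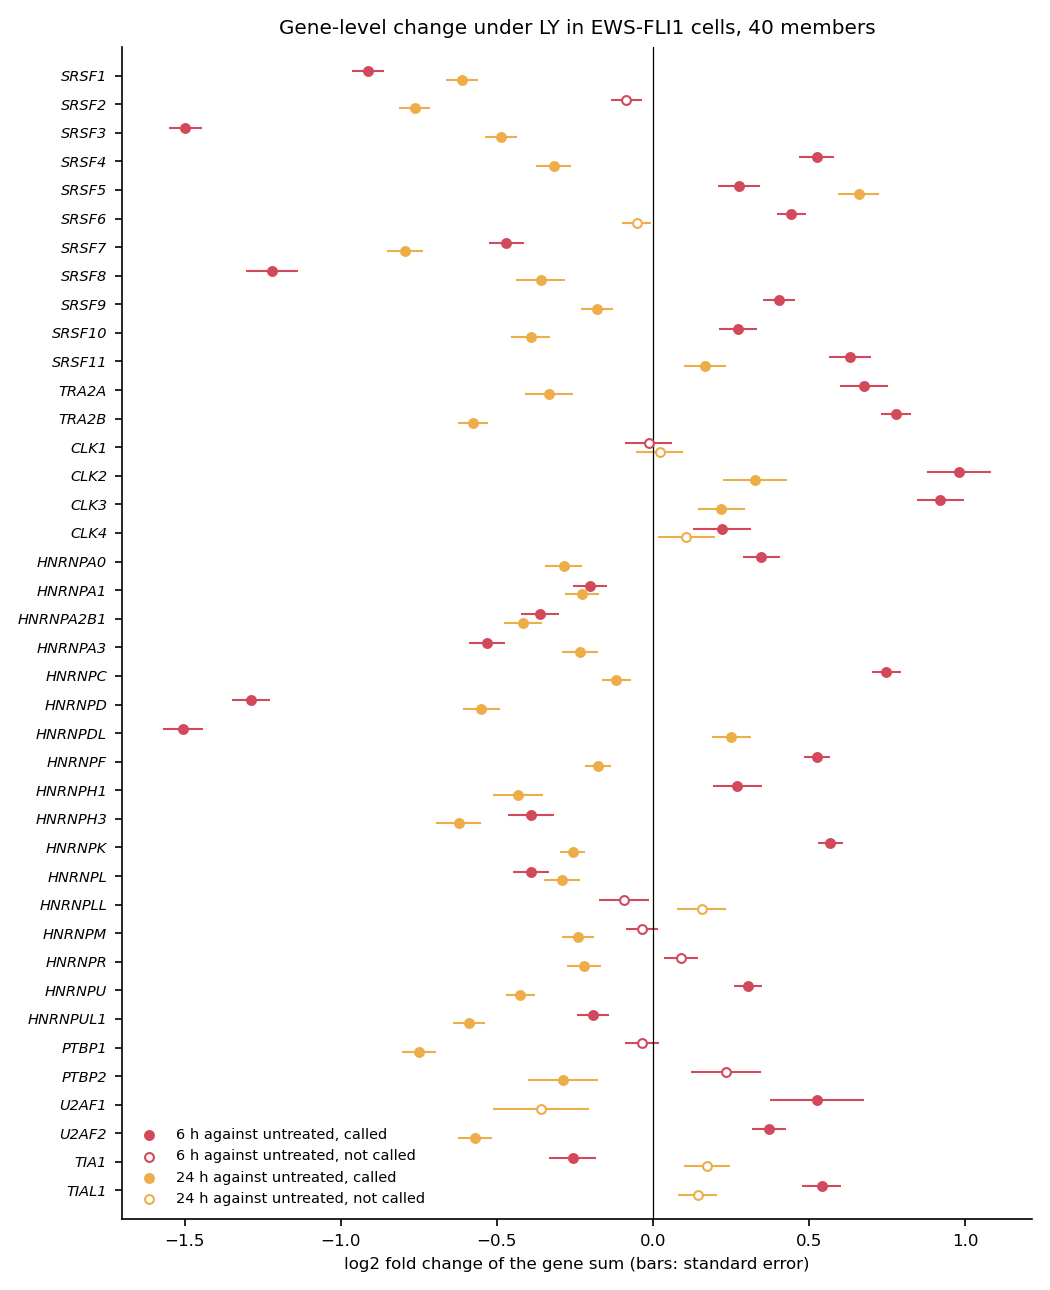
Log2 fold change of the gene sum (horizontal, bars are SE) of each of the 40 genes at 6 h and at 24 h of LY2835219 against untreated EWS-FLI1 cells, filled where called. At 6 h the changes reach from -1.51 for HNRNPDL to 0.98 for CLK2, and at 24 h most points lie left of 0.

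The balance test called 14 of the 33 genes at 6 h: the unproductive to coding ratio rose in 10 and fell in 4. Over all genes tested 14.5% were called, 12.1% higher and 2.42% lower. The median change was 0.45 in the members and 0.34 over all genes. After centring each library on its median ratio, which moved the median of all genes by -0.42, the split was 5 higher and 5 lower. The ratio rose in 4 of 11 SR genes and 6 of 12 hnRNP genes, and fell in TRA2B and in all 3 CLK genes tested. Of the 10 genes with a higher ratio, the coding sum fell in 7, an unproductive class rose in 7, and both happened in 4: SRSF3, SRSF10, HNRNPD and HNRNPL. An unproductive class fell in 2 of the 10: SRSF1, and SRSF3, whose decay sum rose while its retained-intron sum fell. Of the 4 with a lower ratio, the coding sum rose in all 4. An unproductive class fell in CLK1 and CLK4 and rose in TRA2B. These splits were not counted over all genes, so they have no background beside them.

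**Figure D3:**
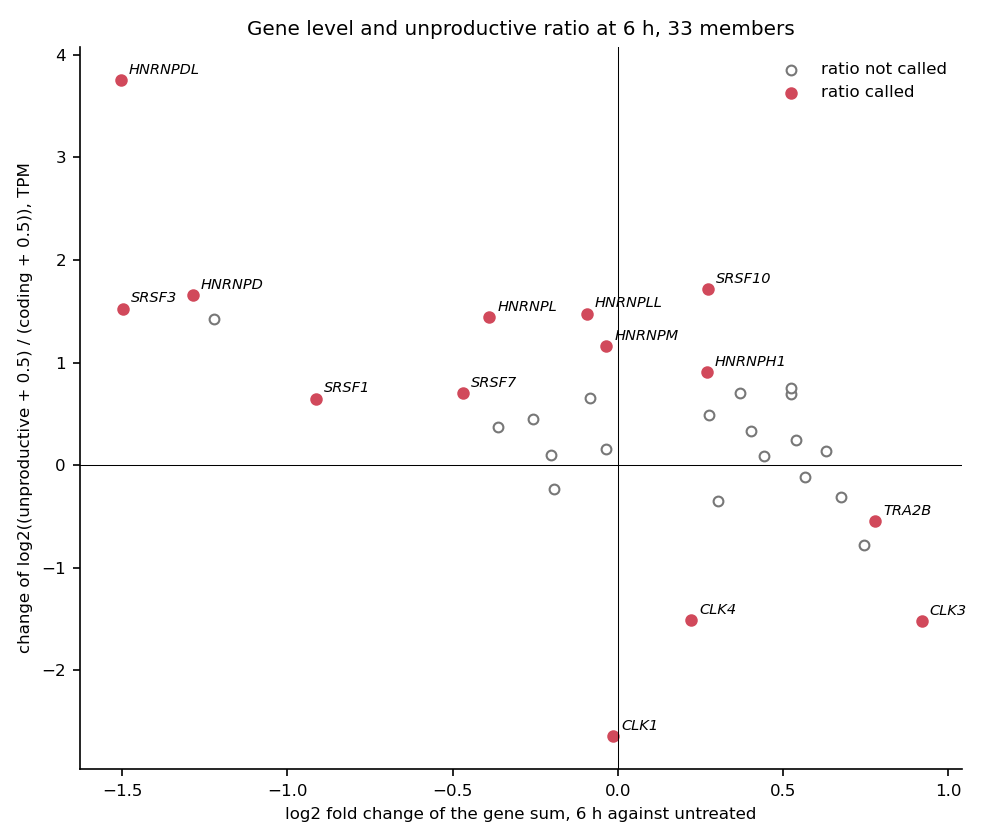
Log2 change of the gene sum at 6 h (horizontal) against the log2 change of the unproductive to coding TPM ratio (vertical) for the 33 tested genes, filled and named where the ratio was called. HNRNPDL lies at the top left (-1.51 and 3.76), SRSF3 below it (-1.50 and 1.53), and CLK1 at the bottom near no change in gene sum (-0.01 and -2.64).

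In CLK1 the gene sum did not pass the test at 6 h, while its transcripts changed. The sum was 60.4, 59.99 and 70.2 CPM at 6 h against 62.3, 65.0 and 65.2 CPM untreated (-0.01 ± 0.08, edgeR adjusted p = 0.884). Its unproductive share, however, was 69.9%, 59.1% and 61.5% untreated and 26.7%, 17.5% and 19.0% at 6 h, and the groups did not overlap. The ratio fell by 2.64 on the log2 scale (SE 0.31, limma adjusted p = 0.000119). Coding transcripts were at 13.4, 20.3 and 15.7 TPM untreated and 29.8, 30.9 and 35.9 TPM at 6 h, and by edgeR the coding sum rose by 1.31 ± 0.18 (adjusted p = 5.75e-06).

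Both kinds of unproductive CLK1 transcript fell. The retained-intron transcript CLK1-210 went from 17.1, 13.2 and 15.8 TPM to 3.21, 3.62 and 3.58 TPM, and the retained-intron sum fell by 1.43 (SE 0.14, edgeR adjusted p = 1.84e-07). CLK1-204, which skips the exon printed above and was singled out after its values were seen, went from 3.11, 4.55 and 5.33 TPM to 0.221, 0 and 0 TPM. The decay sum fell, with an edgeR adjusted p of 0.000198, to so few counts that no fold is given. In the untreated constructs CLK1-204 read 3.55, 3.73 and 3.56 TPM with mCherry, 6.62, 8.22 and 9.64 TPM with EWS-FLI1mut and 5.71, 12.2 and 11.7 TPM with EWS(YS37)-FLI1. Those values are a description, since single transcripts were not tested.

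CLK4 followed with fewer reads. Its unproductive share was 76.0%, 59.7% and 71.6% untreated and 52.1%, 53.5% and 52.7% at 6 h, with no overlap, and the ratio changed by -1.51 ± 0.29 (limma adjusted p = 0.00322). The coding sum rose by 1.94 ± 0.23 (edgeR adjusted p = 1.53e-06), and CLK4-201 went from 1.91, 1.37 and 0.785 TPM to 5.69, 6.17 and 7.14 TPM. The decay sum fell by 1.49 and the retained-intron sum by 0.86, but the most abundant unproductive transcript, the retained-intron CLK4-205, went up with the coding one, from 1.504, 1.03 and 1.87 TPM to 5.79, 5.05 and 6.38 TPM. CLK4-210, with the skipped exon printed above and likewise singled out afterwards, read 0.850, 1.67 and 0.824 TPM untreated and 0.241, 0.299 and 0.728 TPM at 6 h. The gene sum of CLK4 rose by only 0.22 ± 0.09 (edgeR adjusted p = 0.0402). That call was lost without EWS-FLI1 replicate 2 or 3 or any 6 h library, with upper-quartile scaling (0.16), with no filter (0.22) and on the log2(TPM + 1) scale (0.04), and the sign turned with no scaling factors (-0.02).

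CLK3 and CLK2 rose as whole genes. CLK3 read 40.6, 47.4 and 51.9 CPM untreated and 86.4, 89.0 and 89.0 CPM at 6 h (0.92 ± 0.07, edgeR adjusted p = 1.68e-10). Its unproductive share was 20.1%, 19.99% and 24.0% untreated and 6.25%, 9.34% and 10.3% at 6 h, and the ratio changed by -1.52 ± 0.28 (limma adjusted p = 0.00247). The main coding transcript CLK3-223 stood at 17.6, 29.1 and 21.6 TPM and then at 60.9, 45.2 and 53.8 TPM. CLK2 read 27.2, 27.0 and 26.0 CPM untreated and 51.4, 51.7 and 55.2 CPM at 6 h, a rise of 0.98 ± 0.10 (edgeR adjusted p = 9.69e-09). No CLK2 transcript is of an unproductive class, and 3 of its 7 transcripts are coding. On the log2(TPM + 1) scale the CLK2 change was 0.59. Coding sums of all 4 kinases thus rose at 6 h: by 1.31 in CLK1, 1.07 in CLK2, 1.17 in CLK3 and 1.94 in CLK4.

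**Figure D4:**
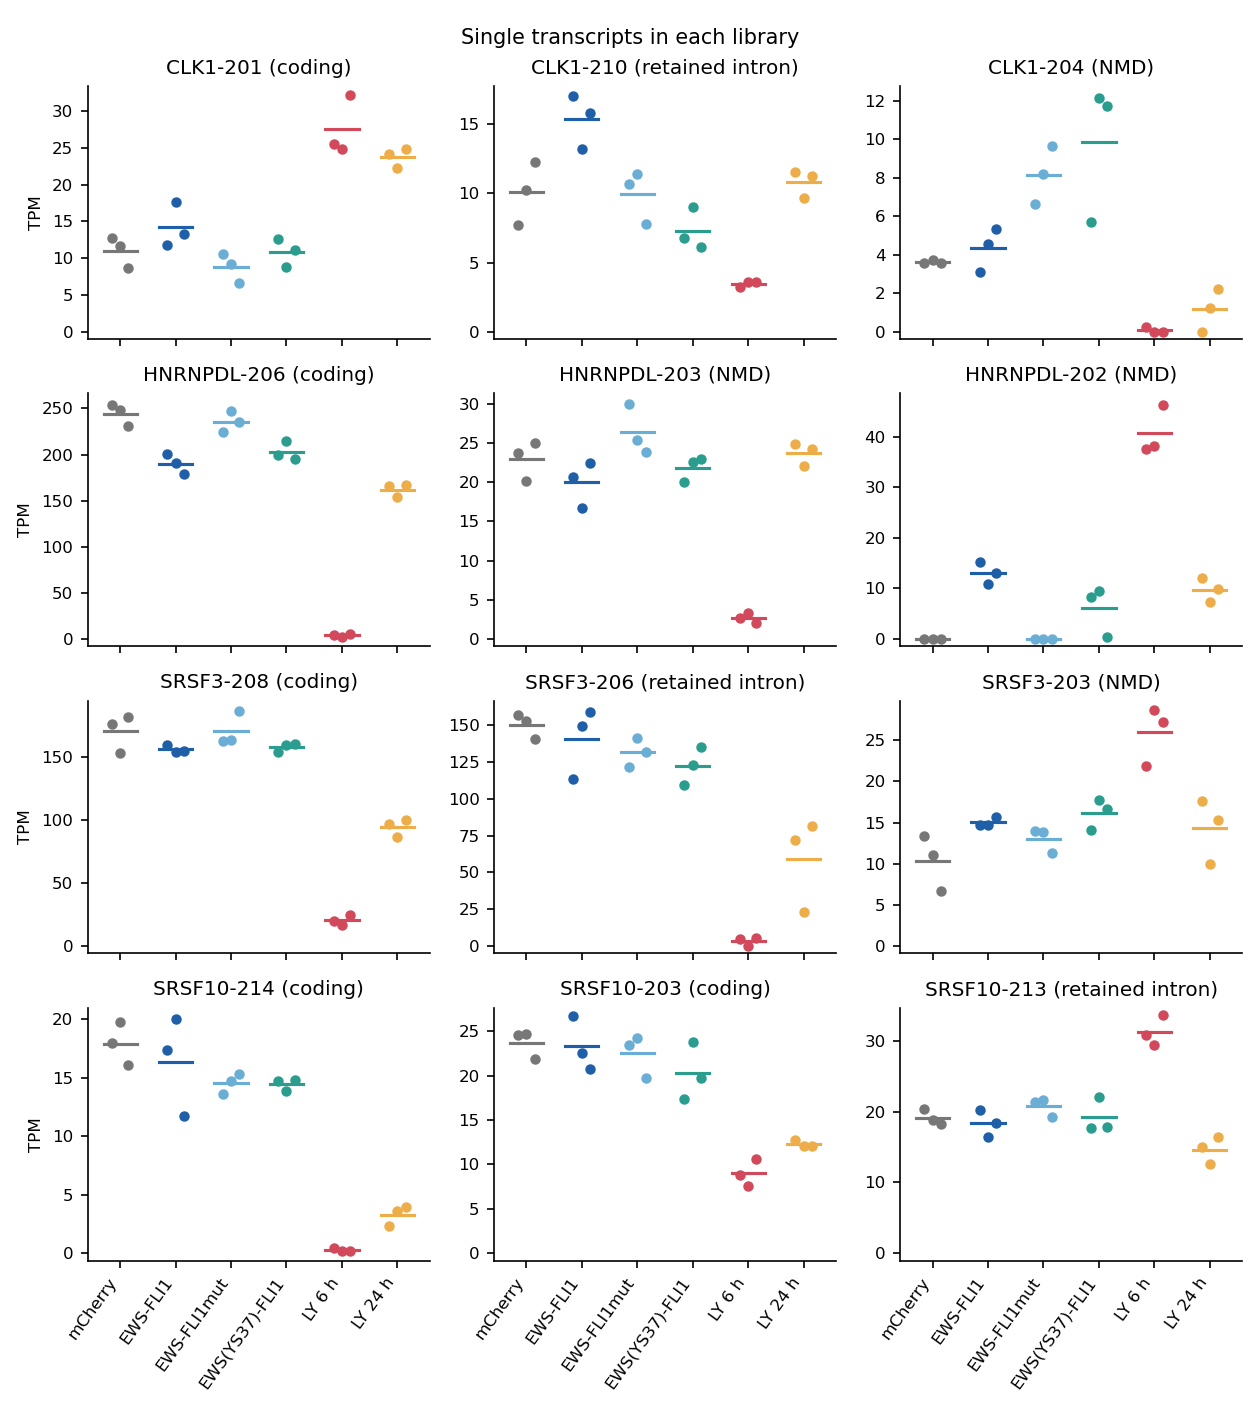
TPM (vertical) of 12 transcripts of CLK1, HNRNPDL, SRSF3 and SRSF10 in each library of the 6 groups (horizontal); points are libraries and lines are group means. At 6 h CLK1-201 is high and CLK1-210 low, HNRNPDL-206, SRSF3-208 and SRSF10-214 are low, and HNRNPDL-202, SRSF3-203 and SRSF10-213 are high.

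SRSF3, the smallest SR protein, showed the opposite pattern. It read 382, 379.7 and 369 CPM untreated and 127, 131 and 141 CPM at 6 h, a change of -1.50 ± 0.05 (edgeR adjusted p = 7.37e-17). Its unproductive share was 53.2%, 57.2% and 59.8% untreated and 77.6%, 82.6% and 77.5% at 6 h (log2 ratio 1.53 ± 0.18, limma adjusted p = 0.000123). The coding transcript SRSF3-208 went from 159, 154 and 155 TPM to 20.2, 16.8 and 25.1 TPM, and the coding sum fell by 2.98 (SE 0.07, edgeR adjusted p = 6.47e-15).

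The unproductive classes of SRSF3 parted at 6 h. SRSF3-203, the transcript with the poison exon printed above, was singled out after its values were seen: it read 14.8, 14.7 and 15.7 TPM untreated and 21.9, 28.7 and 27.3 TPM at 6 h. The decay sum rose by 1.08 ± 0.25 (edgeR adjusted p = 0.00179). The retained-intron transcript SRSF3-206 instead went from 114, 149 and 159 TPM to 4.52, 0 and 5.55 TPM, and the retained-intron sum changed by -0.89. Total unproductive TPM was thus lower at 6 h (83.7, 96.5 and 99.1 against 241, 269 and 292), while the coding TPM was lower still (24.2, 20.4 and 28.8 against 196.1 to 212). Most of the unproductive TPM at 6 h fell on SRSF3 transcripts other than SRSF3-203 and SRSF3-206, which are not shown here.

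SRSF10, an SR-like splicing regulator, showed a higher unproductive share without a lower gene sum. It read 220.3, 199 and 203 CPM untreated and 241, 242 and 269 CPM at 6 h (0.27 ± 0.06 by edgeR, but -0.06 on the log2(TPM + 1) scale and 0.03 with no scaling factors). The unproductive share was 14.9%, 12.9% and 14.9% untreated and 24.0%, 22.8% and 23.8% at 6 h, with no overlap (log2 ratio 1.72 ± 0.20, limma adjusted p = 9.91e-05). The retained-intron transcript SRSF10-213 went from 20.2, 16.5 and 18.3 TPM to 30.8, 29.3 and 33.6 TPM. The coding sum changed by -0.65 ± 0.07, and within it SRSF10-214, singled out afterwards, went from 17.3, 20.01 and 11.8 TPM to 0.489, 0.231 and 0.192 TPM. With decay transcripts alone as the unproductive class, the ratio change was 1.23 with an adjusted p of 0.068.

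SRSF1 and SRSF7, SR proteins with well known poison transcripts, also had a higher ratio. SRSF1 read 544, 503 and 511 CPM untreated and 273, 264 and 289.8 CPM at 6 h (-0.91 ± 0.05 by edgeR), and its unproductive share was 62.2%, 65.3% and 64.9% against 73.7%, 74.3% and 73.6%. Its coding, decay and retained-intron sums all fell, by 1.02, 0.70 and 0.76, and the ratio change of 0.65 ± 0.16 (limma adjusted p = 0.0122) was not called with estimated counts in place of TPM (0.30) or after median centring (0.22). SRSF1-202, its most abundant unproductive transcript, which retains an intron, went from 185, 211 and 187 TPM to 86.9, 86.2 and 94.3 TPM. SRSF7 had a share of 22.6%, 17.6% and 19.9% untreated and 27.3%, 26.8% and 32.7% at 6 h (0.70 ± 0.21, limma adjusted p = 0.0345). The SRSF7 call was lost without any one of 5 of the 6 libraries (all but EWS-FLI1 replicate 1), with changes from 0.57 to 0.78, after median centring (0.28) and with retained introns alone (-0.07). SRSF7-208, the most abundant of its decay transcripts, read 38.3, 29.6 and 32.5 TPM untreated and 25.4, 25.6 and 28.9 TPM at 6 h. SRSF7-205, which holds a poison exon, read 1.90, 1.93 and 0 TPM untreated and 1.77, 1.98 and 1.52 TPM at 6 h. SRSF6-202, the poison-exon transcript of SRSF6, read 99.7, 91.8 and 103 TPM untreated and 110, 102 and 104 TPM at 6 h. Both overlapped between the groups, and the SRSF6 ratio was not called.

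Among the other SR and TRA2 genes, SRSF8 fell and both TRA2 genes rose. SRSF8, a near copy of SRSF2, read 52.4, 60.9 and 52.4 CPM untreated and 22.4, 22.7 and 26.0 CPM at 6 h (-1.22 ± 0.08, edgeR adjusted p = 7.48e-12). TRA2B, which promotes inclusion of exons with GAA-rich enhancers, read 269, 262 and 262 CPM and then 442, 456 and 463 CPM (0.78 ± 0.05, edgeR adjusted p = 9.64e-13). TRA2A, its paralogue, read 106, 103 and 95.0 CPM and then 151, 166 and 169 CPM (0.68 ± 0.08, edgeR adjusted p = 4.22e-08). On the log2(TPM + 1) scale TRA2A changed by 0.25. SRSF11, SRSF4, SRSF6 and SRSF9 rose by 0.63, 0.52, 0.44 and 0.40, but SRSF6 and SRSF9 were not called on the log2(TPM + 1) scale (0.08 and 0.02), where SRSF5 turned from 0.27 to -0.16; with no scaling factors SRSF5 was at 0.03 and not called.

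In TRA2B every class rose. The coding sum rose by 1.05, the decay sum by 0.74 and the retained-intron sum by 0.55. The unproductive share was 76.1%, 77.1% and 75.2% untreated and 66.8%, 68.1% and 70.8% at 6 h, and the ratio changed by -0.54 ± 0.15 (limma adjusted p = 0.0259). This call was lost without EWS-FLI1 replicate 1 or 2, or 6 h replicate 1 or 2 (-0.48 to -0.55), with estimated counts (-0.41) and with decay transcripts alone (-0.57). The coding transcript TRA2B-203 stood at 34.4, 32.4 and 45.2 TPM untreated and 96.8, 96.4 and 76.7 TPM at 6 h, and the retained-intron TRA2B-213 at 153, 131 and 138 TPM and then at 193, 208 and 201 TPM.

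HNRNPDL had the largest change in ratio of the 33 genes. It read 289, 274 and 286 CPM untreated and 92.3, 96.9 and 110.0 CPM at 6 h (-1.51 ± 0.06, edgeR adjusted p = 2.13e-15). Its unproductive share was 12.4%, 11.1% and 13.8% untreated and 66.6%, 66.3% and 65.6% at 6 h, and the ratio rose by 3.76 ± 0.22 (limma adjusted p = 1.89e-07). Coding TPM was 254, 237 and 229.8 untreated and 20.8, 21.3 and 25.6 at 6 h.

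The HNRNPDL transcripts went in different directions. HNRNPDL-206, the main coding transcript, went from 201, 190.3 and 179 TPM to 3.73, 2.42 and 4.83 TPM. HNRNPDL-202, the decay transcript with the extra exon after the stop codon, was singled out after its values were seen: it went from 15.2, 10.97 and 13.1 TPM to 37.7, 38.3 and 46.3 TPM. HNRNPDL-203, the decay transcript most abundant over all libraries, went from 20.7, 16.7 and 22.5 TPM to 2.72, 3.27 and 2.08 TPM. The decay sum as a whole did not pass the test (0.23, edgeR adjusted p = 0.108), and the coding sum fell by 2.32 (SE 0.07, edgeR adjusted p = 6.93e-14). HNRNPDL-202 was listed at 0 in every mCherry and EWS-FLI1mut library and at 8.31, 9.404 and 0.404 TPM with EWS(YS37)-FLI1.

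HNRNPD (AUF1), which binds AU-rich elements in mRNA, changed in the same direction as HNRNPDL. It read 423, 429 and 413 CPM untreated and 162, 179 and 178 CPM at 6 h (-1.29 ± 0.06, edgeR adjusted p = 1.06e-14), and its unproductive share was 3.75%, 5.09% and 6.80% against 14.6%, 15.6% and 12.0%. The ratio rose by 1.66 ± 0.32 (limma adjusted p = 0.00330). HNRNPD-211, with an extra exon after the stop codon and singled out afterwards, read 1.59, 3.06 and 1.77 TPM untreated and 8.15, 11.4 and 9.16 TPM at 6 h, while coding HNRNPD-203 went from 263, 260.4 and 247 TPM to 55.4, 52.3 and 56.8 TPM. HNRNPD-209, its most abundant decay transcript, went the other way, from 14.2, 18.4 and 25.8 TPM to 9.52, 11.7 and 7.13 TPM. The decay sum of HNRNPD did not pass the test (0.09), and its retained-intron sum rose by 1.00.

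HNRNPL and its paralogue HNRNPLL, which bind CA repeats, hold the other 2 poison exons printed above. HNRNPL read 191, 205 and 209 CPM untreated and 161, 149 and 153 CPM at 6 h, and its unproductive share was 15.8%, 12.8% and 12.7% against 29.7%, 29.2% and 32.2% (1.44 ± 0.24, limma adjusted p = 0.00107). By edgeR, HNRNPL decay and retained-intron sums rose by 1.39 and 0.96 and the coding sum fell by 0.76. HNRNPL-202, singled out afterwards, was at 2.21, 2.98 and 1.84 TPM untreated and 5.14, 4.42 and 4.60 TPM at 6 h, with 5.21, 2.74 and 4.60 TPM in mCherry libraries. HNRNPL-207, its most abundant unproductive transcript, which retains an intron, went the other way, from 13.2, 10.6 and 7.74 TPM to 3.14, 2.03 and 3.03 TPM. HNRNPLL had a share of 6.36%, 8.50% and 4.88% untreated and 13.2%, 21.9% and 18.7% at 6 h (1.48 ± 0.37, limma adjusted p = 0.0153). HNRNPLL-201 stood at 2.04, 3.04 and 1.73 TPM and then at 2.97, 4.59 and 3.73 TPM, which overlapped. The HNRNPLL ratio call was lost without EWS-FLI1 replicate 3 (1.32) or 6 h replicate 2 (1.30) or 3 (1.42), with decay transcripts alone (0.98) and after median centring (1.05).

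HNRNPH1 and HNRNPM gained retained-intron signal, by 0.89 and 1.34 in the retained-intron sums, with coding sums that were not called (-0.06 in each). HNRNPH1, which binds G runs, had an unproductive share of 40.03%, 35.4% and 44.0% untreated and 53.3%, 57.0% and 53.6% at 6 h (0.91 ± 0.21, limma adjusted p = 0.00864), and HNRNPH1-235, singled out afterwards, went from 9.63, 6.62 and 14.3 TPM to 37.5, 32.6 and 34.4 TPM. HNRNPH1-222, its most abundant unproductive transcript, read 43.9, 43.3 and 46.1 TPM and then 45.9, 52.8 and 57.4 TPM, which overlapped. In mCherry libraries that share was 47.9%, 51.6% and 46.0%. HNRNPM had a low share throughout, 1.19%, 0.897% and 1.20% untreated and 2.26%, 2.27% and 3.07% at 6 h (1.16 ± 0.30, limma adjusted p = 0.0158). Its call was lost without EWS-FLI1 replicate 2 (1.04) or 6 h replicate 3 (1.02). After median centring neither gene was called (0.48 and 0.74).

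Of the other hnRNP genes at 6 h, HNRNPC, HNRNPK, HNRNPF, HNRNPA0 and HNRNPU rose by 0.75, 0.57, 0.53, 0.35 and 0.30. HNRNPC read 576, 619.8 and 590.0 CPM untreated and 998, 979 and 1020.1 CPM at 6 h. HNRNPA0 and HNRNPU turned to -0.03 and -0.13 on the log2(TPM + 1) scale and were not called with no scaling factors (0.10 and 0.06). U2AF1 and U2AF2, which mark the 3′ splice site, rose by 0.52 and 0.37, and U2AF1 was not called without scaling factors (0.28) or on the log2(TPM + 1) scale (0.16). Of the TIA proteins, which bind uridine-rich introns, TIAL1 rose by 0.54 and TIA1 changed by -0.26, a call lost on the log2(TPM + 1) scale (-0.21). PTBP1 stood at 481, 515 and 479 CPM untreated and 489.7, 492 and 459 CPM at 6 h and was not called (-0.03). Its main coding transcript PTBP1-203 read 168, 171 and 165 TPM untreated and 105, 113 and 99.5 TPM at 6 h, with no overlap. TPM and gene sums are on different scales: HNRNPA0, with 1 transcript, averaged 41.2 TPM untreated and 40.3 TPM at 6 h, against its rise of 0.35. How much of the PTBP1-203 difference is one of scale was not tested.

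Over the members' class sums at 6 h, edgeR called 68 of 98 (43 higher, 25 lower), beside 48.4% of all 24918 sums. Retained-intron sums were higher in 17 and lower in 4 of 28 genes (31.0% of all such sums called), decay sums higher in 8 and lower in 5 of 30 (24.1%), and coding sums higher in 18 and lower in 16 of 40 (62.3%). The medians were 0.59, 0.33 and 0.01, beside 0.34, 0.20 and -0.06 over all genes. The retained-intron share of all matched TPM was also higher at 6 h than untreated, as given above; its part in the members' ratios was not tested.

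At 24 h of LY2835219 the ratio test called 1 of 33 genes against untreated EWS-FLI1 cells, while most gene sums were lower. A ratio that is not called does not show that the balance had returned to the untreated state. edgeR called 5 genes higher and 28 lower, beside 48.0% of all genes (23.3% higher, 24.6% lower). The median was -0.29 over the members and 0.03 over all genes. Lower were 8 of 11 SR genes, 15 of 17 hnRNP genes, both TRA2 genes and both PTB genes. Higher were SRSF5, SRSF11, HNRNPDL, CLK2 and CLK3, of which only SRSF5 was called on the log2(TPM + 1) scale: the others stood there at 0.12, 0.03, 0.19 and 0.17, with HNRNPDL at 0.25 by edgeR. SRSF11 (0.17) lost its call without EWS-FLI1 replicate 2 (0.11) or 3 (0.12) or 24 h replicate 3 (0.08), and PTBP2 (-0.29) without any one of the 6 libraries except 24 h replicate 3.

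The largest 24 h changes by gene sum were in SRSF7, SRSF2, PTBP1 and SRSF5. SRSF7 read 175, 175 and 173 CPM untreated and 100.2, 92.2 and 109 CPM at 24 h (-0.79 ± 0.06, edgeR adjusted p = 6.45e-11). SRSF2, which binds exonic enhancers and is often mutated in myeloid disease, read 328, 339.9 and 343 CPM and then 206, 183.9 and 205 CPM (-0.76 ± 0.05, edgeR adjusted p = 8.79e-12). Its gene sum had not passed the edgeR test at 6 h (-0.09, adjusted p = 0.132). In TPM, a different scale, the main coding transcript SRSF2-201 read 146, 169 and 145 at 6 h against 245, 265 and 287 untreated. Most of its sequence is shared with other genes, as given below. PTBP1 went from 481, 515 and 479 CPM to 299.7, 300.0 and 278 CPM (-0.75 ± 0.05, edgeR adjusted p = 7.70e-11). SRSF5 was higher, at 279, 251 and 304 CPM untreated and 429, 401 and 486 CPM at 24 h (0.66 ± 0.07, edgeR adjusted p = 1.59e-08). None of these 4 pairs of groups overlapped, which is no separate support, since the genes were picked as the largest called changes.

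CLK2 and CLK3 at 24 h lay between untreated and 6 h in their means. CLK2 read 31.7, 36.9 and 32.0 CPM, higher than untreated by 0.33 ± 0.10 (edgeR adjusted p = 0.0111), and lost the call without EWS-FLI1 replicate 3 (0.28) or 24 h replicate 2 (0.22). CLK3 read 53.9, 55.5 and 53.3 CPM (0.22 ± 0.08, edgeR adjusted p = 0.0200) and lost it without EWS-FLI1 replicate 1 (0.13) or 2 (0.21) or 24 h replicate 2 (0.17). CLK1 read 63.9, 61.3 and 70.0 CPM, with a gene sum that was not called (0.02), but its coding sum was higher than untreated by 0.76 ± 0.18 (edgeR adjusted p = 0.00278) and that of CLK4 by 1.07 ± 0.23. The unproductive share of CLK1 was 39.1%, 40.1% and 41.1% at 24 h, below every untreated library, though its ratio missed the threshold (-1.35 ± 0.31, limma adjusted p = 0.0554).

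The balance test at 24 h called 1 of 33 genes, HNRNPH1, beside 0.927% of all genes (0.811% higher, 0.116% lower), and 8 at an unadjusted p under 0.05. HNRNPH1 had a share of 52.2%, 51.8% and 60.6% at 24 h against 40.03%, 35.4% and 44.0% untreated (0.92 ± 0.21, limma adjusted p = 0.0497). That call was lost whichever of the 6 libraries was left out, with changes from 0.74 to 1.06. Over all genes, the 64 called became 1 to 17 when 1 library was left out (1 without EWS-FLI1 replicate 2 or 24 h replicate 3), so the background share rests on single libraries too. The median change was 0.18 in the members and 0.18 over all genes. Of the class sums, 9 were higher and 36 lower of 98, beside 30.4% of all sums called.

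The 2 treatment times were also compared directly. By edgeR, 9 genes were higher and 26 lower at 24 h than at 6 h, beside 62.9% of all genes called (32.6% higher, 30.3% lower). With no scaling factors that split was 13 and 20, and on the log2(TPM + 1) scale 12 and 21. Of the 40 genes, 13 were called against untreated cells at both times, in opposite directions, and differed between the times. The share of all genes that did so was not counted, so this number has no background beside it. Higher at 6 h and lower at 24 h were SRSF4, SRSF9, SRSF10, TRA2A, TRA2B, HNRNPA0, HNRNPC, HNRNPF, HNRNPH1, HNRNPK, HNRNPU and U2AF2, but on the log2(TPM + 1) scale the 6 h rises of SRSF10, HNRNPA0 and HNRNPU turn and those of HNRNPH1 (0.19) and SRSF9 (0.02) are not called. With no scaling factors the 6 h rises of SRSF10, HNRNPA0, HNRNPU and HNRNPH1 (0.02) are not called. HNRNPDL went the other way by edgeR, with a 24 h call that is lost on the log2(TPM + 1) scale (0.03, limma adjusted p = 0.781). The HNRNPC call at 24 h (-0.12) was lost without EWS-FLI1 replicate 2 (-0.11) or 24 h replicate 1 (-0.08), with upper-quartile (-0.08) or no scaling (-0.10) and with no filter.

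HNRNPDL rose by 1.76 ± 0.06 from 6 h to 24 h (edgeR adjusted p = 2.79e-16), to 326, 319.6 and 365 CPM, with an unproductive share of 14.5%, 12.1% and 13.9%. HNRNPDL-206 read 166, 153 and 167 TPM at 24 h, still below every untreated library (201, 190.3 and 179 TPM). HNRNPDL-202 read 12.0, 7.28 and 9.83 TPM. TRA2B fell by 1.35 (SE 0.05, edgeR adjusted p = 1.67e-16), to 179.6, 171 and 181 CPM, below every untreated library. TRA2A changed by -1.01 ± 0.08 (edgeR adjusted p = 7.62e-11), to 75.6, 77.2 and 88.7 CPM. SRSF3 rose by 1.01 ± 0.05 (edgeR adjusted p = 9.32e-14), to 261, 264 and 282 CPM, still lower than untreated (-0.49 ± 0.05, adjusted p = 3.14e-08).

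The ratio differed between the times in 6 of 33 genes by limma, 2 higher and 4 lower at 24 h, beside 7.17% of all genes (2.12% higher, 5.06% lower). It was lower at 24 h in HNRNPDL (-3.62, limma adjusted p = 2.16e-07), HNRNPL (-1.56, adjusted p = 0.00141), SRSF10 (-1.52, adjusted p = 0.000490) and SRSF3 (-1.46, adjusted p = 0.000404). It was higher in CLK1 (1.30, limma adjusted p = 0.0230) and TRA2B (0.54, adjusted p = 0.0432). The CLK1 call was lost without any one of the libraries except 6 h replicate 1 (1.15 to 1.33), and the TRA2B call without any one of the 6 libraries (0.48 to 0.62). After median centring the split was 4 higher and 4 lower. The 24 h shares were 12.6%, 10.5% and 15.4% in HNRNPL, 14.4%, 15.3% and 16.2% in SRSF10 and 59.1%, 55.4% and 59.0% in SRSF3, each overlapping the untreated range. Single transcripts of these genes did not all do so. At 24 h SRSF10-214 read 2.33, 3.65 and 3.95 TPM, HNRNPL-207 4.05, 2.49 and 2.42 TPM and SRSF3-208 97.0, 86.7 and 99.9 TPM. Each lay below every untreated EWS-FLI1 library, while SRSF3-203 and HNRNPL-202 overlapped the untreated range. Of the class sums, 16 were higher and 49 lower of 98, beside 44.8% of all sums.

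Other genes of RNA splicing and decay moved as follows, by edgeR on gene sums. Over all genes, 31.6% were called higher and 33.3% lower at 6 h, and 23.3% and 24.6% at 24 h. Between the times 32.6% were higher and 30.3% lower at 24 h. Of 46 core spliceosome genes, 26 rose and 8 fell at 6 h, and 3 rose and 16 fell at 24 h. Between the times 5 were higher and 34 lower at 24 h. SNRPB2 rose at 6 h (0.76), and DHX16, a helicase of the activated spliceosome, changed by -1.01. PRPF8, the central scaffold of the spliceosome, fell by 0.91 at 24 h.

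Of 20 genes of the exon junction complex and of nonsense-mediated decay, 14 rose and 5 fell at 6 h, with ETF1, the translation release factor, at 1.42 ± 0.06 (edgeR adjusted p = 7.21e-16), SMG5 at 0.95 and RNPS1 at 0.87. At 24 h 5 rose and 6 fell, UPF1, the helicase of this decay pathway, by 0.49. Of 14 listed RNAs known to be degraded by the pathway, 6 could be measured and 5 of these rose at 6 h. UPP1 was highest (1.63), and SMG5, UPF1 (0.47) and SMG1 belong also to the list of decay factors. At 24 h 3 rose and 3 fell. Whether decay itself was slower was not measured.

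Of 17 further SR protein kinases, phosphatases and import factors, 12 rose and 2 fell at 6 h, including HIPK3 (0.75) and CDK11A (0.64), and PPP1CC, a protein phosphatase 1 subunit, changed by -0.98. At 24 h 2 rose and 9 fell. Of 61 other splicing regulators tested, 36 rose and 17 fell at 6 h, with RBM15 at 2.45 ± 0.08 (edgeR adjusted p = 7.96e-18), RBM4 at 1.38 and MBNL2 at -1.84 ± 0.10. At 24 h 10 rose and 21 fell.

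The ratio test at 6 h, which called 12.1% of all genes higher and 2.42% lower, gave 5 higher and 0 lower of 32 core spliceosome genes, 14 higher and 3 lower of 45 other regulators, 1 higher and 0 lower of 15 decay and junction factors, and 1 in each direction of 10 kinase and import genes. SNRPA1 (2.69 ± 0.38, limma adjusted p = 0.000388), PRPF8 (2.59) and DHX15 (2.14) were highest in the core list. TARDBP (TDP-43), known to regulate its own RNA, was at 2.13 ± 0.41 (limma adjusted p = 0.00297). CDK12, a kinase of RNA polymerase II, changed by -1.15 ± 0.27 (limma adjusted p = 0.0106) and PPP1CC by 1.81. At 24 h the core list had 1 higher (BUD31, 1.51) and the other regulators 2 (LUC7L, 1.57, and SRRM2, 0.96). With the constructs alone the ratio test called 0 genes of these lists.

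With the constructs, gene sums of the core list were higher in 1 and lower in 4 genes for EWS-FLI1. They were higher in 0 and lower in 5 for EWS-FLI1mut, and in 7 and 2 for EWS(YS37)-FLI1. Over all genes tested, 21.1%, 7.15% and 21.7% were called in either direction, in that order. In the same order, 5 and 0, 0 and 0, and 1 and 3 of the kinase and import genes were called, DYRK1B most with EWS-FLI1 (0.82). Other regulators were higher in 10 and lower in 4 with EWS-FLI1, including QKI (0.45) and MATR3 (-0.50), 0 and 4 with EWS-FLI1mut, and 4 and 6 with EWS(YS37)-FLI1. All 3 share the mCherry libraries, as the 2 drug comparisons share the untreated EWS-FLI1 libraries.

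Some of these values rest on sequence that other genes share. For the main coding transcript, 99.2% of 31-base words of U2AF1 also occur in transcripts of other genes (chiefly U2AF1L5), 95.8% of SRSF2 (MFSD11, on the opposite strand), 72.1% of HNRNPA1, 59.9% of SRSF1, 59.8% of HNRNPL, 56.7% of HNRNPA3 and 51.5% of HNRNPC. In SRSF3 and SRSF10 the share was 18.1% and 17.4%. Exons of 7 members overlap a gene on the opposite strand, including CLK3 (EDC3), SRSF9 (GATC) and HNRNPA2B1 (CBX3), and how strand was treated is not given in the sources used here, so the split between such genes is uncertain. Shares of transcripts within a gene rest on the same estimation, which divides reads among transcripts that differ by a single exon.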

How the data were processed

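PolyA RNA of 18 libraries was measured in 6 groups of 3, as the labels give them. The authors' deposited tables hold estimated counts and TPM per transcript, made with kallisto 0.46 per the submitters' processing notes, which also name CASAVA and hg38; the transcript set and strand setting are not given in the sources used here. The deposited lengths were not used for tests. Of 188753 transcripts, 169797 were matched to GENCODE 29 by Ensembl identifier, 158775 of them in the same version. A table of fractional counts cannot give exact sampling intervals, and the totals above limit precision.

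Estimated counts as deposited were summed per gene, or per gene and transcript class, rounded, filtered (filterByExpr), scaled by TMM and tested with edgeR 4.0.16 (quasi-likelihood, all 6 groups in 1 fit, 12 residual degrees of freedom, biological coefficient of variation 8.77%, R 4.3.3). CPM are counts divided by the scaled library size. The unproductive to coding ratio, log2((decay + retained-intron TPM + 0.5)/(coding TPM + 0.5)), was tested with limma 3.58.1 (trend) for 6903 genes with mean coding TPM of at least 1 and unproductive TPM of at least 0.5. P-values were adjusted by Benjamini-Hochberg over all features of a test, with 0.05 as threshold. The scripts were tested on simulated data. For the ratio, the simulated spread was smaller than the average in the data. That run therefore does not show how often such changes are found here. DESeq2 1.42.0 and other scalings, filters, pseudocounts and left-out libraries were tried as alternatives. Python 3.11.15 with pandas 2.3.3 and matplotlib 3.10.9 made the transcript sums and figures.

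CLK1 to CLK4 were named in every case, with up to 4 members of largest change called per test and comparison, their most abundant coding and unproductive transcripts, and up to 3 called genes per list. Other members and transcripts were chosen after their values were seen. The members, lists and tests were chosen with earlier results of these data known. Single transcripts are given as TPM without a test. Protein sequences were not used here.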

Additional observations from a re-analysis of the deposited data

Results flagged for a closer look

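The effect of LY2835219 differed between its 2 times in many of these genes, by the direct comparison of 24 h with 6 h. By gene sums (edgeR), 35 of 40 genes differed, beside 62.9% of all genes, with log2 differences of 1.76 in HNRNPDL, 1.01 in SRSF3, -1.01 in TRA2A and -1.35 in TRA2B. Of the 40, 13 were called in opposite directions against untreated cells at the 2 times, with no count over all genes to set beside them. Several of these calls were lost or turned with no scaling factors or on the log2(TPM + 1) scale, as given above. By the unproductive to coding ratio (limma), 6 of 33 genes differed, beside 7.17% of all genes: -3.62 in HNRNPDL, -1.56 in HNRNPL, -1.52 in SRSF10, -1.46 in SRSF3, 0.54 in TRA2B and 1.30 in CLK1. The times share no libraries, but library kit and collection are not given per sample and cannot be told apart from time. Groups of 3 are too small for a search for single outlying libraries.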

How the results depend on the processing

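Settings of scaling, filter and tool, the replicate block and each left-out library were tried for gene sums. For members called, DESeq2 kept the direction and side of the threshold for 120 of 120 calls, RLE scaling for 118, upper-quartile scaling for 112, no filter for 113, no scaling factors for 100 and limma on log2(TPM + 1) for 87. Directions turned with no scaling factors for CLK4 at 6 h (-0.024) and, between the times, HNRNPH3 (0.027) and HNRNPM (0.053), and on the log2(TPM + 1) scale at 6 h for SRSF5 (-0.16), HNRNPU (-0.13), HNRNPA0 (-0.032) and SRSF10 (-0.060) and between the times for HNRNPH3 (0.042); with retained introns alone the SRSF7 ratio at 6 h was -0.068. The cause was not tested. Calls that held in every alternative numbered 5 of 9 with EWS-FLI1, 0 of 4 with EWS-FLI1mut, 1 of 6 with EWS(YS37)-FLI1, 23 of 33 at 6 h, 26 of 33 at 24 h and 28 of 35 between the times; for the ratio they were 7 of 14 at 6 h (CLK1, CLK3, CLK4, HNRNPD, HNRNPDL, HNRNPL and SRSF3), 0 of 1 at 24 h and 3 of 6 between the times (HNRNPDL, HNRNPL and SRSF3).

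Members called with EWS-FLI1mut, 4 in the report, were 1 with no scaling factors, 12 by DESeq2 and 1 by limma on log2(TPM + 1), and with EWS(YS37)-FLI1 3 in place of 6 by the last. Class sums called were 7 in place of 11 with EWS-FLI1 without a filter, and 13 in place of 3 with EWS-FLI1mut by DESeq2. Genes called by the ratio at 24 h, 1 in the report, were 0 with a pseudocount of 0.1, 4 with 1, 3 without a filter, 4 with unproductive TPM of at least 2, 6 with estimated counts, 0 with decay transcripts alone and 0 after median centring; between the times, 6 became 10 with estimated counts. Over all features, limma on log2(TPM + 1) called 1679 in place of 3536 genes with EWS-FLI1, 384 in place of 1200 with EWS-FLI1mut and 1907 in place of 3645 with EWS(YS37)-FLI1, the ratio at 6 h called 405 in place of 1000 with decay transcripts alone, and its 833 higher and 167 lower became 374 and 404 after centring; gene sums at 6 h were 5304 higher and 5586 lower, 3535 and 7450 with no scaling factors. The ratio at 24 h called 7 to 182 features in place of 64 over these settings, and 1 to 17 with 1 library left out; between the times 495 became 260 to 308 with 1 left out. With EWS-FLI1mut, gene sums called were 667 in place of 1200 without mCherry replicate 2 and class sums 267 in place of 618 without EWS-FLI1mut replicate 2.

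Replicate numbers did not pair the samples: same-numbered samples correlated at -0.0377 to 0.0621. With a replicate block, 119 of 120 gene sum calls and 19 of 21 ratio calls kept their side, and the ratio at 24 h called 0 members. Leaving out 1 library at a time gave member counts by gene sums of 6 to 9 with EWS-FLI1, 0 to 2 with EWS-FLI1mut (0 without mCherry replicate 2), 2 to 8 with EWS(YS37)-FLI1 (2 without mCherry replicate 2), 32 to 33 at 6 h, 30 to 32 at 24 h and 33 to 36 between the times. For class sums, in the same order, they were 5 to 8 (5 without mCherry replicate 2), 1 to 3, 0 to 7 (0 without mCherry replicate 2), 60 to 70, 44 to 46 and 61 to 65. For the ratio they were 0 with each construct, 11 to 14 at 6 h, 0 at 24 h and 4 to 5 between the times. Few counts remain in the decay sum of CLK1 at 6 h, which limits what can be said of its size.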
